A study of Mus musculus with 6 samples.

Results

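A group of 10 genes of bone morphogenetic protein (BMP) signalling were followed from mouse epiblast stem cells to oligodendrocytes: the ligand genes Bmp4 and Bmp7, the Id genes Id1, Id2, Id3 and Id4, the intracellular and membrane inhibitor genes Smad6, Smad7 and Bambi, and the gene of the secreted antagonist noggin, Nog. They were chosen by name, with earlier results of these data known. Each was read from the array transcript that carries its symbol alone. All 10 were measured, each by 1 transcript, among 19938 genes with such a transcript.

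BMP ligands bind paired serine/threonine kinase receptors, which phosphorylate Smad1, Smad5 and Smad9; with Smad4 these enter the nucleus and switch on targets that include the Id genes and the pathway's own inhibitors. Id proteins have a helix-loop-helix domain but no DNA-binding region, and they hold back the basic helix-loop-helix (bHLH) factors they bind. In the neural tube BMPs come from the dorsal side, oppose ventral patterning and neural induction, and turn oligodendrocyte progenitors towards the astrocyte fate. Neural induction in culture therefore commonly uses BMP inhibitors.

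The samples were all from mice of strain 129. Oligodendrocytes (2 arrays, labelled passage 3 and passage 11) had been given thyroid hormone while FGF2 and PDGF-AA were withdrawn. Oligodendrocyte progenitor cells (OPCs, 2 arrays, passages 3 and 11) were kept in N2B27 medium with FGF2, PDGF-AA and SHH. Rosettes (1 array, day 5) are neural tube-like epithelia, and came from stem cells treated with SB431542, an inhibitor of activin and TGF-beta receptors, with Dorsomorphin and noggin protein, which block BMP signalling, and with retinoic acid (RA) and SHH. Epiblast stem cells (EpiSCs, 1 array) are pluripotent cells of the postimplantation type and grew in serum replacement with FGF2. The labels name no separate lines or animals for the 6 cultures. The protocol lists no BMP inhibitor for OPC or oligodendrocyte medium.

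The array medians over genes lay between 8.98 and 9.04 on the log2 scale. Marker genes followed the labels. The mean of 5 EpiSC markers was 12.90 on the EpiSC array and 7.89 to 8.29 on the others, that of 5 OPC markers 11.69 to 12.12 on OPC and oligodendrocyte arrays and 8.63 to 8.66 on the others, and that of 4 oligodendrocyte markers 12.28 and 12.68 in oligodendrocytes and 8.55 to 8.94 elsewhere. The rosette array had the highest mean of 5 neuroepithelial markers (11.46) and of 5 neuron markers (11.94) of the 6 arrays. In such bulk RNA, fewer cells of a type and less RNA per cell cannot be told apart. Values are log2 expression, with a difference in log2 units, its standard error (SE) from the limma fit and a p adjusted over all genes. Where a value is given without either array of a pair, the arrays were left out one at a time.

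The members did not move as a block. OPCs had more Id3 RNA than the rosette (2.76-fold), and more Id2, Bmp7 and Id3 RNA than EpiSCs (6.57-, 3.49- and 2.63-fold), while Smad7 was lower in OPCs than in EpiSCs (2.99-fold) and rose in oligodendrocytes (3.45-fold over OPCs). Id2, Id4 and Bmp7 stood at least 2-fold higher in the rosette than in EpiSCs. Bmp4 was at its highest in oligodendrocytes, at levels that differed widely between the passages. Id1, Smad6 and Nog spanned less than 1 log2 unit over all 6 arrays, as did Bambi.

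**Figure D1:**
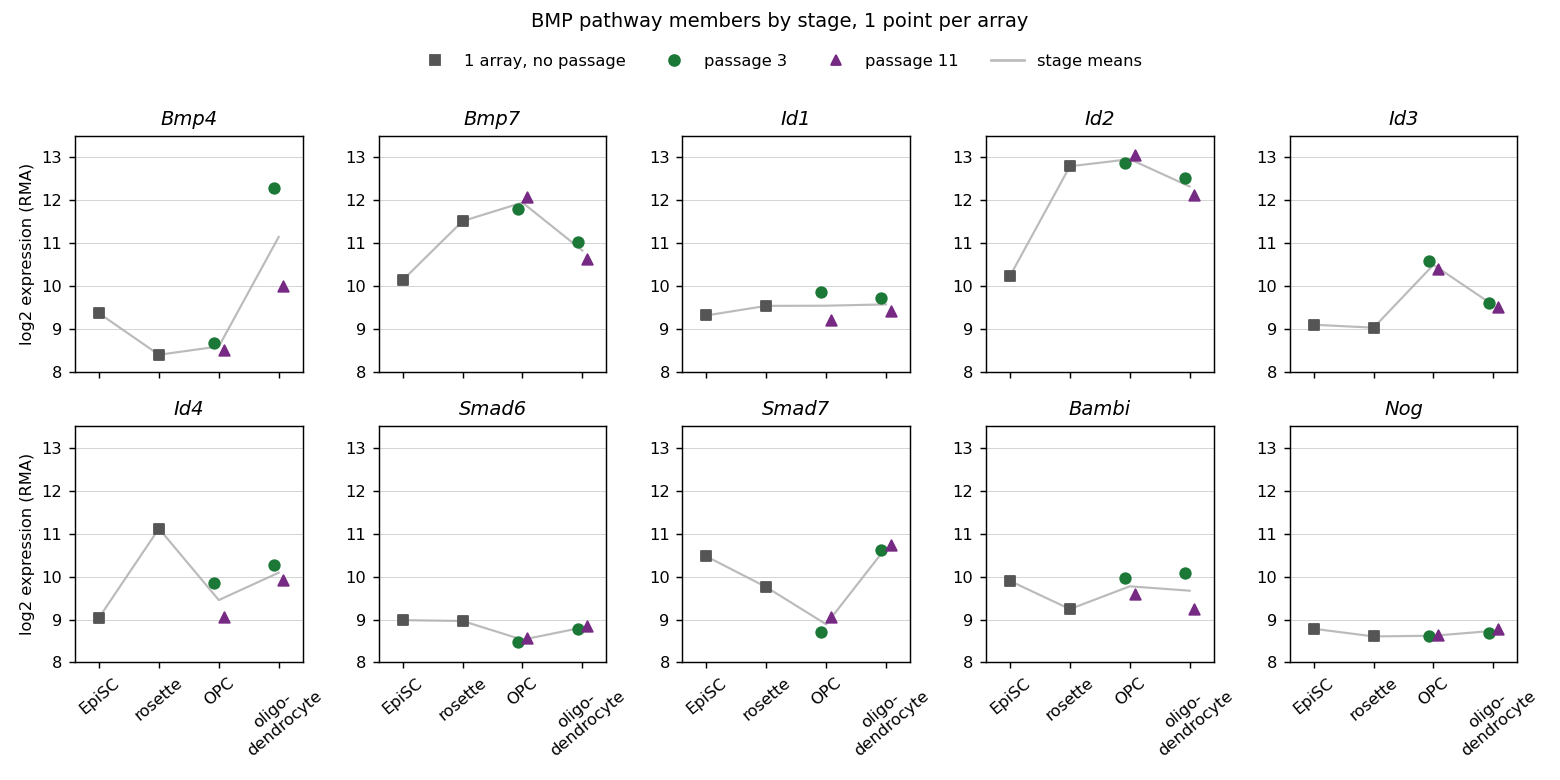
Log2 expression (RMA) of each member on the y axis against the stage on the x axis, 1 point per array, with grey squares for the unpassaged cultures, green circles for passage 3 and purple triangles for passage 11; the grey line joins stage means. Id2 is low only on the EpiSC array, Smad7 is lowest in OPCs, and the Bmp4 arrays of oligodendrocytes lie at 12.27 and 10.01.

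Of the ligands, Bmp4, a dorsalising factor that also acts on OPCs, stood at 9.36 in EpiSCs and 8.40 in the rosette. In OPCs it was at 8.67 (passage 3) and 8.51 (passage 11), and in oligodendrocytes at 12.27 and 10.01. Both oligodendrocyte arrays lay above all others, but passage 11 minus passage 3 was -2.26, larger in size than the 95th percentile of the passage difference over genes in these cells, 0.905. The difference of oligodendrocytes from OPCs was 2.55 ± 0.71 (SE, 5.85-fold) and did not pass (adjusted p = 0.255 in limma, 95% interval 0.76 to 4.34). It was smaller at passage 11 than at passage 3, where it was 3.60. Without the passage 3 oligodendrocyte array it was 1.42 and without the passage 11 array 3.68. There the spread no longer holds the gap between the pair, and the lone array is assumed to vary like the OPC pair. OPCs differed from EpiSCs by -0.77 (adjusted p = 0.787 in limma) and from the rosette by 0.19 (adjusted p = 0.968).

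Bmp7, a ligand that pairs with BMP4 and is also made outside the dorsal midline, followed another course. It stood at 10.14 in EpiSCs, 11.51 in the rosette, 11.80 and 12.08 in OPCs, and 11.03 and 10.62 in oligodendrocytes. Its lowest array was the EpiSC one, and both OPC arrays lay above all others. OPCs exceeded EpiSCs by 1.80 ± 0.25 (SE, 3.49-fold, adjusted p = 0.0182 in limma). That call was lost without the passage 11 OPC array (1.67, adjusted p = 0.0767) and when all transcripts were tested (adjusted p = 0.0503). Oligodendrocytes differed from OPCs by -1.12 ± 0.20 (adjusted p = 0.135, 95% interval -1.63 to -0.60), with -1.46 at passage 11 and -0.77 at passage 3. Without the passage 3 oligodendrocyte array this was -1.33 and without the passage 11 array -0.91. The rosette and OPC neighbours did not differ beyond their error (0.43 ± 0.25, adjusted p = 0.541).

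The 4 Id genes, best known as direct BMP targets, had 4 different profiles. Id2, which restrains OPC differentiation in rodent cultures, was at 10.24 in EpiSCs, 12.79 in the rosette, 12.86 and 13.04 in OPCs, and 12.51 and 12.12 in oligodendrocytes. The EpiSC array lay alone, well below the other 5. OPCs exceeded EpiSCs by 2.72 ± 0.23 (SE, 6.57-fold, adjusted p = 0.00489 in limma), a call that held without either OPC array. The rosette already stood 2.55 above EpiSCs (5.86-fold, 1 array each, no test) in a culture made with BMP inhibitors, and OPCs differed from it by only 0.17 (adjusted p = 0.859, 95% interval -0.42 to 0.75). In oligodendrocytes Id2 differed from OPCs by -0.64 ± 0.19 (adjusted p = 0.279), with -0.93 at passage 11 and -0.35 at passage 3. Without the passage 3 oligodendrocyte array it was -0.84 and without the passage 11 array -0.44.

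Id3, an Id gene that responds quickly to BMP in many cell types, was at 9.10 in EpiSCs and 9.03 in the rosette. It was at 10.59 and 10.40 in OPCs, and at 9.60 and 9.51 in oligodendrocytes. The OPC pair lay above every other array, and the pairs were tight, with SDs of 0.14 in OPCs and 0.06 in oligodendrocytes (n = 2 each). OPCs exceeded the rosette by 1.46 ± 0.18 (SE, 2.76-fold, adjusted p = 0.0215 in limma) and EpiSCs by 1.40 ± 0.18 (2.63-fold, adjusted p = 0.0155). Oligodendrocytes differed from OPCs by -0.94 ± 0.15 (adjusted p = 0.101), with -0.89 at passage 11 and -0.99 at passage 3. With 1 OPC array left, passage 11 or passage 3, the difference from the rosette was 1.37 (adjusted p = 0.122) or 1.56 (adjusted p = 0.103) and that from EpiSCs 1.30 (adjusted p = 0.0979) or 1.49 (adjusted p = 0.0711), and with all transcripts tested the rosette call was lost too (adjusted p = 0.0659). With 1 oligodendrocyte array left, that of passage 11 or passage 3, the difference from OPCs was -0.99 or -0.90.

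Id4, whose protein binds OLIG proteins and holds back oligodendrocyte differentiation in rodent cells, was at 9.04 in EpiSCs and 11.12 in the rosette. It was at 9.85 and 9.05 in OPCs, and at 10.26 and 9.92 in oligodendrocytes. The rosette array stood highest, 2.07 above EpiSCs (4.21-fold, no test), and the passage 11 OPC array was level with EpiSCs. OPCs differed from the rosette by -1.66 ± 0.36 (SE, adjusted p = 0.0941 in limma), which passed with passage as a block (adjusted p = 0.0265). Oligodendrocytes differed from OPCs by 0.64 ± 0.30 (adjusted p = 0.497), and by 0.24 to 1.04 with 1 array left out, none of them called.

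Id1, the gene whose promoter gave the classical BMP reporter, was the flattest of the 4. It was at 9.31 in EpiSCs, 9.54 in the rosette, 9.86 and 9.22 in OPCs, and 9.73 and 9.42 in oligodendrocytes. Its whole range of 0.64 lay between the 2 OPC arrays. OPCs differed from the rosette by 0.00 (95% interval -0.79 to 0.79) and from EpiSCs by 0.23 (-0.56 to 1.02), and oligodendrocytes from OPCs by 0.03 (-0.61 to 0.68). Differences up to those bounds were not excluded by the fit.

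The upstream letters of the 3 Id genes that moved most are shown because the same pathway is known to act on all of them and their profiles differ. The RefSeq promoter table (GRCm38.p6) held 5 of the 10 members, namely Bmp4, Id2, Id3, Id4 and Smad6. The 250 bases before the annotated start of Id2 (chr12:25096093-25096342, minus strand), Id3 (chr4:136143572-136143821, plus strand) and Id4 (chr13:48260866-48261115, plus strand) read as follows, 5′ to 3′, with matches to the motifs named in the next paragraph in capitals:
Id2: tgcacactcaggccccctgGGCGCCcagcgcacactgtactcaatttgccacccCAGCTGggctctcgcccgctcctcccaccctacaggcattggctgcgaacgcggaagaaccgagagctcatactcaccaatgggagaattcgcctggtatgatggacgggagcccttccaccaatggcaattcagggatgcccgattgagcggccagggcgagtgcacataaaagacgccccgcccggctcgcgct
Id3: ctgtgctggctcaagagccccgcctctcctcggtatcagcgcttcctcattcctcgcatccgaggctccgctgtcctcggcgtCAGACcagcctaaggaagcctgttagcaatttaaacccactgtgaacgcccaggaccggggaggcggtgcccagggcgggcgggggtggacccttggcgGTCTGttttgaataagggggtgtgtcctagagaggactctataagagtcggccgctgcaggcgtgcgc
Id4: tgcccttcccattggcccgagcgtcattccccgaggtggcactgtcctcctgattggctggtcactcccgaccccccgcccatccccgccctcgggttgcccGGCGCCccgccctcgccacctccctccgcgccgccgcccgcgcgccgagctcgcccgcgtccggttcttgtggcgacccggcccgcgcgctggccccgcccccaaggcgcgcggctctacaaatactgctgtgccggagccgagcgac

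The motifs searched, on both strands, were GGCGCC, a GC-rich element of BMP Smads; CAGAC, the core of the Smad-binding element; and CANNTG, the E-box that bHLH factors bind. Id2 held 1 GGCGCC, 231 bases before the start, and 1 CANNTG at 196. Id3 held 2 matches to CAGAC, at 167 and at 68. Id4 held 1 GGCGCC, at 148. Bmp4 held 3 matches to CANNTG and Smad6 none to any of the 3 motifs. No matches overlapped. Of 32851 promoters in the table, 9.59% held GGCGCC, 42.2% CAGAC and 66.2% CANNTG in the same window. The matches are letters in a window and say nothing of binding.

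Among the inhibitors, Smad7, which blocks the receptors of both BMP and TGF-beta and promotes oligodendrocyte differentiation in mouse, showed the clearest pattern. It was at 10.47 in EpiSCs, 9.76 in the rosette, 8.72 and 9.06 in OPCs, and 10.62 and 10.73 in oligodendrocytes. Both OPC arrays lay below all others and both oligodendrocyte arrays above all others. Smad7 rose in oligodendrocytes over OPCs by 1.79 ± 0.17 (SE, 3.45-fold, adjusted p = 0.0407 in limma), with 1.67 at passage 11 and 1.90 at passage 3. The adjusted p was 0.0726 after quantile normalization of the genes, 0.145 with all transcripts tested, 0.189 without the passage 3 OPC array (1.62) and 0.142 without the passage 11 OPC array (1.96). In OPCs Smad7 was lower than in EpiSCs by 1.58 on the log2 scale (-1.58 ± 0.21, 2.99-fold, adjusted p = 0.0166; -1.41 and 0.0796 without the passage 3 OPC array). Against the rosette OPCs were at -0.87 ± 0.21 (adjusted p = 0.12 in limma).

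Smad6, the inhibitory Smad that prefers BMP receptors, was at 8.99 in EpiSCs, 8.97 in the rosette, 8.49 and 8.57 in OPCs, and 8.78 and 8.84 in oligodendrocytes. OPCs were lowest, as for Smad7, over a range of only 0.50, and no tested difference passed (OPCs from EpiSCs -0.46, adjusted p = 0.208; OPCs from the rosette -0.44, adjusted p = 0.304; oligodendrocytes from OPCs 0.28, adjusted p = 0.511).

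Bambi, a pseudoreceptor that lacks the kinase domain, was at 9.90 in EpiSCs, 9.24 in the rosette, 9.96 and 9.59 in OPCs, and 10.09 and 9.25 in oligodendrocytes. Its passage 3 arrays were above its passage 11 arrays in both cell types. Nog, whose product binds BMPs outside the cell, stayed between 8.61 and 8.79 on all 6 arrays, within 0.18. These values, like those of Smad6, lay below the median of all gene values (9.005), and low values may hold background. The noggin given to the rosette culture was protein and adds no transcript. No tested difference of Bambi or Nog passed (lowest adjusted p = 0.657 for Bambi between stages and 0.754 for Nog).

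**Figure D2:**
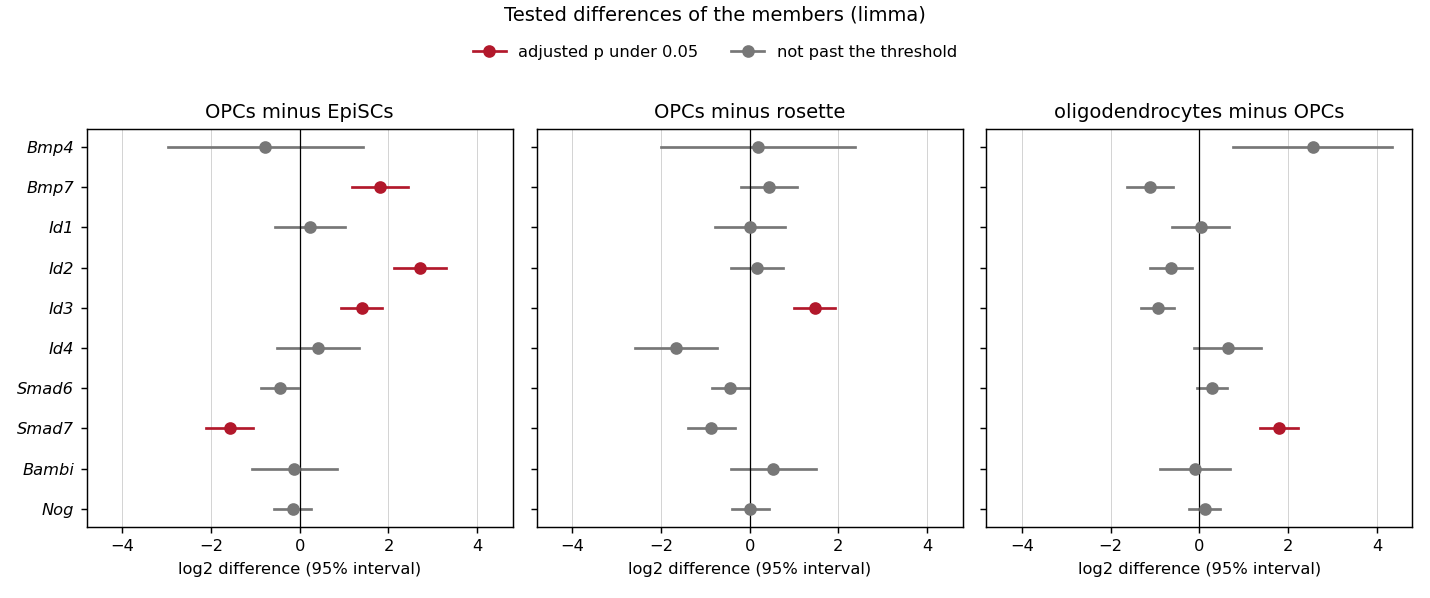
Log2 difference (x axis) of each member (y axis), 1 panel for each tested pair of stages, with the 95% interval of the limma fit as the bar; red marks an adjusted p under 0.05. Bmp7, Id2, Id3 and Smad7 are red for OPCs against EpiSCs, Id3 for OPCs against the rosette and Smad7 for oligodendrocytes against OPCs, and the widest bars belong to Bmp4.

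Counted by comparison, 4 of 10 members passed in OPCs against EpiSCs, 3 higher (Bmp7, Id2, Id3) and 1 lower (Smad7). Of all genes 7.01% passed there, with 4.07% higher and 2.93% lower. In OPCs against the rosette 1 of 10 passed (Id3, higher), where 3.13% of all genes were called, 1.26% higher; with passage as a block 2 passed, Id3 and Id4. In oligodendrocytes against OPCs 1 of 10 passed (Smad7, higher), where 0.446% of all genes were called, 0.396% higher. The OPC arrays enter all 3 comparisons, so these are not separate results. In the untested pair of rosette and EpiSCs 3 of 10 members were at least 2-fold apart, all higher in the rosette (Bmp7, Id2, Id4), against 10.6% of all genes, 6.91% higher. The median absolute difference of the members was 0.61, 0.43, 0.64 and 0.68 in these 4 comparisons, and that of all genes 0.20, 0.19, 0.14 and 0.26. The arrays of oligodendrocytes and OPCs did not overlap for 8 of 10 members, where 40.1% of all genes do not overlap. In all 3 tested comparisons the count of members called fell without either OPC array and rose without either oligodendrocyte array. The number of all genes called moved the same way, so these shifts are not read as results about the members.

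The rest of the pathway was read from 6 lists with 59 genes, 56 of them measured. In OPCs against EpiSCs 6 rose and 3 fell, in OPCs against the rosette 0 rose and 3 fell, and in oligodendrocytes against OPCs 0 of 56 passed in limma, with 4 at an unadjusted p under 0.05. At that level lay 12.3% of all genes in the last comparison. Against EpiSCs 22 of the 56 reached it in OPCs, beside 20.5% of all genes, and against the rosette 13, beside 15.4%. The background for the calls themselves, in either direction, was 7.01%, 3.13% and 0.446% of all genes in the 3 comparisons as first listed. In the same order the median difference of the 56 was -0.02, 0.05 and -0.03, and that of all genes -0.05, 0.02 and 0.00. All 9 and all 3 called genes kept their sign without either OPC array. Without the passage 3 OPC array 4 of the 9 and 1 of the 3 were still called, and without the passage 11 OPC array 3 and 0. With all transcripts tested 3 of the 9 were still called, Fst, Cer1 and Skil, and 0 of the 3. Without either oligodendrocyte array more of the 56 were called in all 3 comparisons, and so were more of all genes. With passage as a block, or with median centring, 6 were called against the rosette. Of all 19938 genes, 472 rose and 734 fell there with the block, and 358 rose and 449 fell with median centring. The main fit had 251 and 373.

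**Figure D3:**
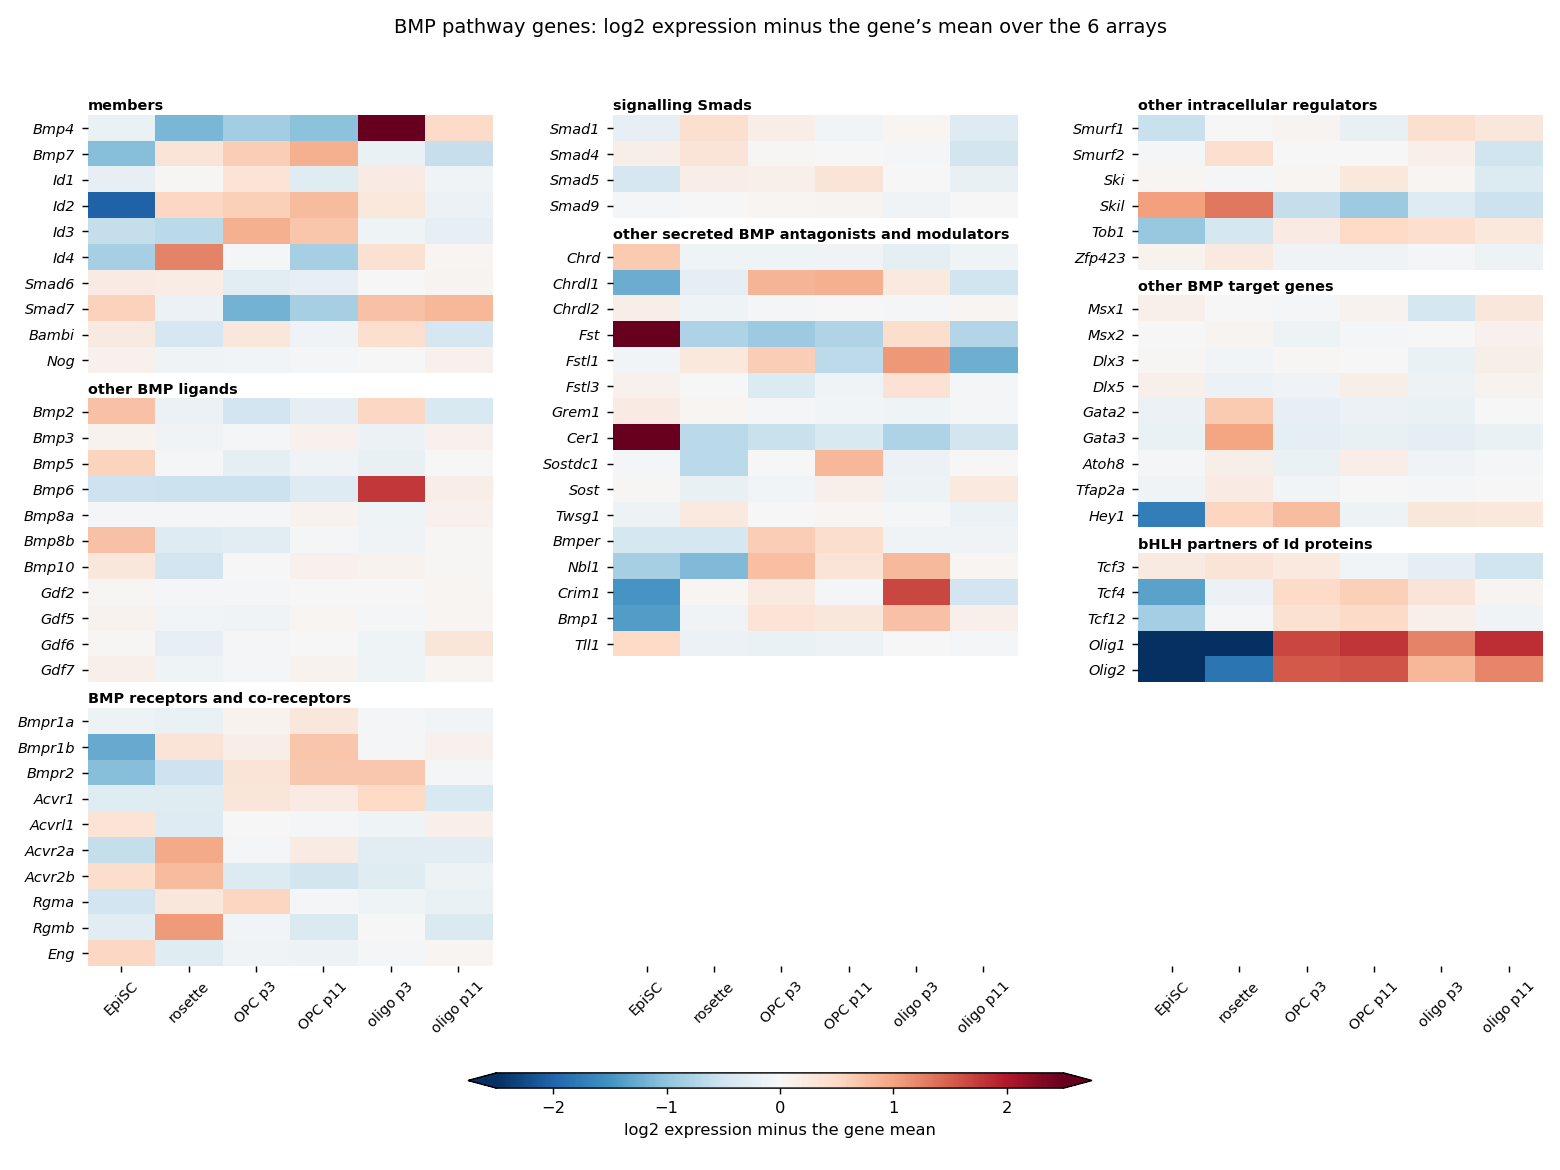
Log2 expression minus the gene's own mean over the 6 arrays (colour, red above and blue below, capped at 2.5) for the members, the measured genes of the 6 further BMP lists and the bHLH partners of Id proteins; columns are the 6 arrays in stage order. Fst and Cer1 are highest on the EpiSC array, Bmp4 and Bmp6 are highest in passage 3 oligodendrocytes, and Olig1 and Olig2 are high in OPCs and oligodendrocytes.

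Of 11 other ligand genes none passed in any tested comparison (in limma; at an unadjusted p under 0.05 lay 3 in OPCs against EpiSCs, 1 in OPCs against the rosette and 1 between oligodendrocytes and OPCs, where the shares of all genes are 20.5%, 15.4% and 12.3%). Bmp6 was at 9.62 and 11.23 in passage 11 and passage 3 oligodendrocytes, against 9.13 and 8.92 in OPCs. Its difference of 1.40 ± 0.52 did not pass (adjusted p = 0.368), and as for Bmp4 the passage 3 oligodendrocyte array was highest. Without that array the difference was 0.60 and without the passage 11 oligodendrocyte array 2.21. Bmp8b was 1.05 lower in the rosette than in EpiSCs (-1.05, no test), and the roof plate ligand gene Gdf7 differed there by -0.25.

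Of 10 receptor and co-receptor genes, 1 rose in OPCs against EpiSCs: Bmpr1b, a type I receptor gene, by 1.67 ± 0.27 (SE, adjusted p = 0.0269 in limma; 1.40 and 0.0849 without the passage 11 OPC array). In OPCs against the rosette 1 fell, the activin and BMP type II receptor gene Acvr2b, at -1.18 ± 0.18 (adjusted p = 0.0396; 0.169 without the passage 3 and 0.253 without the passage 11 OPC array). That call was also lost with quantile normalization (adjusted p = 0.0764) and with a variance trend (adjusted p = 0.0502). Of all genes 4.07% were called higher in OPCs than in EpiSCs, and 1.87% lower in OPCs than in the rosette. Bmpr2, the BMP type II receptor gene, was at 12.31 and 12.66 in OPCs, against 10.92 in EpiSCs (adjusted p = 0.0616 in limma). Acvr2a and the co-receptor gene Rgmb were 1.53 and 1.34 higher in the rosette than in EpiSCs (no test). Of 4 signalling Smads 0 passed in any comparison (limma; 1, Smad5, at an unadjusted p under 0.05, in OPCs against EpiSCs, where 20.5% of all genes lie). Smad5 differed there by 0.66 (adjusted p = 0.126 in limma). Smad1 was 0.61 higher in the rosette than in EpiSCs, and Smad4 differed by -0.30 in OPCs against the rosette.

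Of 16 measured genes for secreted antagonists and modulators, 3 rose and 2 fell in OPCs against EpiSCs in limma. Of all genes 4.07% were called higher there and 2.93% lower. Against the rosette 0 passed. At an unadjusted p under 0.05 lay 8 against EpiSCs and 4 against the rosette, where 20.5% and 15.4% of all genes lie. Follistatin, which binds activins and some BMPs, is encoded by Fst; it was at 8.82 and 8.99 in OPCs, against 12.48 in EpiSCs (-3.57 ± 0.47, adjusted p = 0.0165). Cer1, an antagonist of Nodal and BMP, was at 7.39 and 7.55 in OPCs, against 10.80 in EpiSCs (-3.33 ± 0.21, adjusted p = 0.00284). Both were as low in the rosette, at 8.96 and 7.26. The chordin-like gene Chrdl1 rose by 2.10 ± 0.32 (adjusted p = 0.024), Bmper, a BMP-binding modulator gene, by 0.97 ± 0.17 (adjusted p = 0.037) and Bmp1, which encodes a protease that cleaves chordin and not a BMP ligand, by 1.71 ± 0.28 (adjusted p = 0.028). Fst and Cer1 were called without either OPC array. The other 3 were not: the adjusted p without the passage 3 and the passage 11 array was 0.0691 and 0.0767 for Chrdl1, 0.235 and 0.171 for Bmper, and 0.0995 and 0.0957 for Bmp1.

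Of 6 further intracellular regulators, Skil, a Smad co-repressor gene that is itself a TGF-beta and activin target, was at 9.38 and 9.06 in OPCs, against 11.29 in the rosette and 11.01 in EpiSCs. It fell by 2.07 on the log2 scale against the rosette (adjusted p = 0.0152 in limma) and by 1.78 against EpiSCs (adjusted p = 0.0131); without the passage 11 OPC array these were -1.91 (adjusted p = 0.0673) and -1.62 (adjusted p = 0.0617). The call against the rosette was also lost with all transcripts tested (adjusted p = 0.052). Tob1, which encodes an antiproliferative protein that also restrains BMP Smads, rose by 1.29 in OPCs over EpiSCs (adjusted p = 0.0257; 0.0793 without the passage 3 and 0.145 without the passage 11 OPC array). Smurf1 and Smurf2, for ubiquitin ligases of the pathway, were 0.57 and 0.48 higher in the rosette than in EpiSCs. Of 9 measured genes known as BMP targets in other tissues, Hey1, also a Notch target, rose in OPCs over EpiSCs by 2.06 ± 0.37 (adjusted p = 0.0387; 1.61 and 0.0526 without the passage 3 OPC array), and Gata3 fell in OPCs against the rosette (7.65 and 7.70, against 8.87; -1.19, adjusted p = 0.0308; 0.184 and 0.193 without the passage 3 and the passage 11 OPC array). Gata2 stood at -0.83 (adjusted p = 0.0896 in limma), and Atoh8 was 0.19 higher in the rosette than in EpiSCs. Gata2 and Gata3 also mark ventral interneurons, and neuron markers were highest on the same array; their part in the result was not tested.

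Of the bHLH proteins that Id proteins bind or titrate, 5 of 6 genes were measured. Olig1 and Olig2, the oligodendrocyte lineage factors, rose in OPCs over EpiSCs (4.98 and 4.90, adjusted p = 0.00235 and 0.00185 in limma) and over the rosette (5.01 and 3.39, adjusted p = 0.00583 each). The E protein genes Tcf4 and Tcf12 rose over EpiSCs by 1.87 (adjusted p = 0.00858 in limma) and 1.27 (adjusted p = 0.0211). Of all genes 4.07% were called higher in OPCs than in EpiSCs, and 1.26% higher than in the rosette. The Tcf12 call was lost without the passage 3 OPC array (adjusted p = 0.103), without the passage 11 OPC array (0.132) and with all transcripts tested (0.0567). In oligodendrocytes against OPCs 0 of 5 passed in limma. At an unadjusted p under 0.05 lay 2, beside 12.3% of all genes. Without the passage 11 oligodendrocyte array Olig2 stood at -0.72. All 5 differences were negative, with a median of -0.41, where that of all genes was 0.00. Olig1 was higher in oligodendrocytes than in OPCs at passage 11 (0.08) and lower at passage 3 (-0.415).

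Passage divided the members unevenly. In passage 11 against passage 3, tested over both cell types, 0 of 10 members passed in limma (3, Id1, Id4 and Bambi, at an unadjusted p under 0.05, where 13.9% of all genes lie), and 0.00% of all genes were called. Id1 was lower at passage 11 in oligodendrocytes (-0.31) and OPCs (-0.64), Id4 likewise (-0.34 and -0.80), and Bambi likewise (-0.84 and -0.36). Their adjusted p was 0.357 each. Within OPCs Id1 and Id4 differed by more than 95% of genes (0.49), and within oligodendrocytes Bmp4 did (-2.26, against 0.905).

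**Figure D4:**
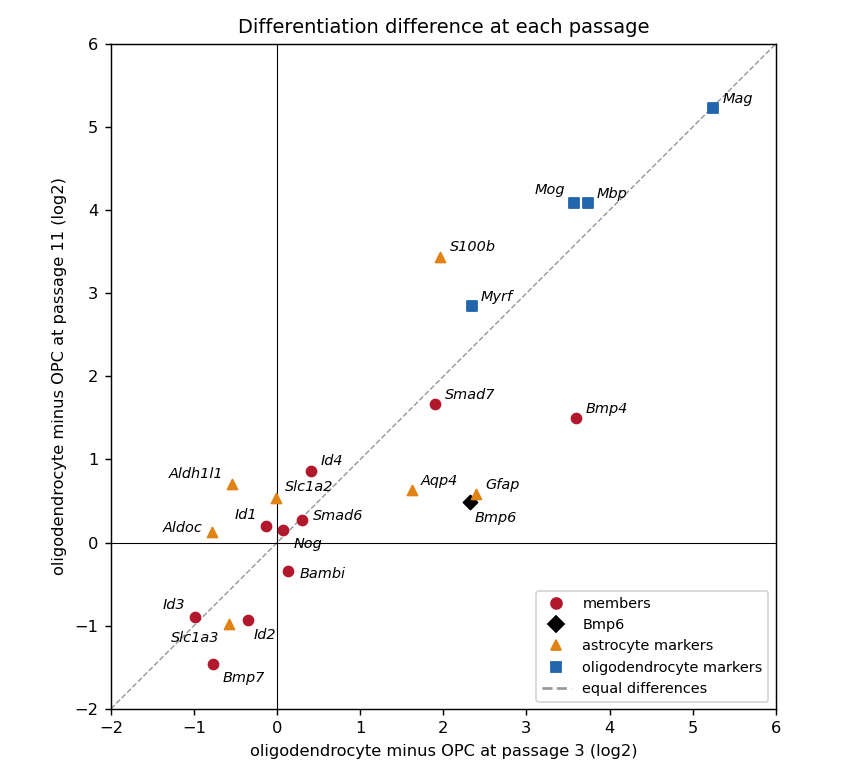
Oligodendrocyte minus OPC log2 difference at passage 3 (x axis) and at passage 11 (y axis) for the 10 members, Bmp6, the 7 astrocyte markers and the 4 measured oligodendrocyte markers, 1 point per gene; the dashed line marks equal differences. Smad7 (1.67 at passage 11 and 1.90 at passage 3) and Id3 (-0.89 and -0.99) lie near the line, and Bmp4, Bmp6 and Gfap lie well below it.

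Of 7 astrocyte markers, Gfap and Aqp4 were highest on the passage 3 oligodendrocyte array, as Bmp4 was, and the other 5 were not. Gfap, the astrocyte filament gene, was at 8.69 in passage 11 and 10.50 in passage 3 oligodendrocytes, against 8.11 on both OPC arrays, and the water channel gene Aqp4 was at 8.47 and 9.89, against 7.84 and 8.27. S100b, which oligodendrocytes also express, was at 12.06 in passage 11 and 10.25 in passage 3 oligodendrocytes, and Slc1a2 (10.41 and 9.61) and Aldoc (13.24 and 12.96) were also higher at passage 11. Slc1a3 was below OPCs in oligodendrocytes (-0.78, adjusted p = 0.199 in limma, and -0.99 without the passage 3 oligodendrocyte array). Aldh1l1 was at 9.36 and 10.71 in passage 11 and passage 3 oligodendrocytes, against 8.65 and 11.25 in OPCs. The mean level of the 7 astrocyte markers was 10.59 and 10.89 in oligodendrocytes and 9.87 and 10.31 in OPCs. It was 9.17 in the rosette and 8.90 in EpiSCs. Between oligodendrocytes and OPCs 5 of the 7 differences were positive and 2 negative, and S100b had the largest (2.70). Of the 7, 0 passed in oligodendrocytes against OPCs (limma; 3 at an unadjusted p under 0.05, where 12.3% of all genes lie). Among 6 mesenchymal markers the mean level was 9.26 and 9.79 in passage 11 and passage 3 oligodendrocytes, against 8.98 and 9.25 in OPCs. Between the oligodendrocyte passages Acta2 (11.87 and 13.79) and Dcn (9.06 and 10.07) made up most of this, and Col1a1, at 9.91 and 10.10, had the largest gap of the other 4. The part of such cells in the Bmp4 values was not tested.

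The 4 measured oligodendrocyte markers rose over OPCs at both passages, as Bmp4 did, with smaller gaps between the oligodendrocyte passages than Bmp4. Mbp, for myelin basic protein, was at 12.85 in passage 11 and 12.40 in passage 3 oligodendrocytes, and Mag, for myelin-associated glycoprotein, at 13.24 and 13.27. Mog was at 12.62 in passage 11 and 11.91 in passage 3 oligodendrocytes, and Myrf at 11.99 and 11.52. Smad7 was at 10.73 in passage 11 and 10.62 in passage 3 oligodendrocytes.

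Profiles most like those of 3 members were sought among the other genes with a named symbol. The measure was the root mean square difference of mean-centred profiles over the 6 arrays. For Id1 these were the sterol genes Stard4 (0.06) and Dhcr7 (0.08), followed by the glycogen phosphorylase gene Pygb (0.10). For Id3 they were Fam81a (0.11), Kcnv1 (0.14) and Synj2 (0.16). For Bmp4 they were the elastic fibre gene Fbln5 (0.33), Man1a (0.35) and Ermn, an oligodendrocyte cytoskeletal protein gene (0.41). In oligodendrocytes Fbln5, Man1a and Ermn were at 10.55, 10.58 and 8.28 at passage 11 and at 12.69, 11.79 and 9.50 at passage 3. That is the order of the Bmp4 arrays, which genes picked for a like profile tend to share. Over 6 arrays these likenesses are descriptions.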

How the data were processed

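Gene expression was measured in 6 cultures, each on 1 Affymetrix whole-transcript array. Expression was deposited on a log2 scale, computed by the authors with RMA; the submitters' processing notes name Affymetrix Expression Console, whose version is not given in the sources used here. Of 35556 transcripts, 21789 had exactly 1 gene symbol in the platform annotation, and the transcript with the highest mean was kept for each of 19938 genes. There was no detection call, and low values may hold background. The number of arrays limits the precision.

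The test was limma's moderated fit (version 3.58.1, R 4.3.3, lmFit with eBayes), two-sided, with Benjamini-Hochberg adjustment over all 19938 genes and calls at an adjusted p under 0.05; the code was tested on simulated data. One fit of all 6 arrays by cell type had 2 residual and 3.32 prior degrees of freedom. It assumes that the lone EpiSC and rosette arrays vary like the OPC and oligodendrocyte pairs, whose arrays differ in passage. Passage was tested on 4 arrays with cell type as a covariate (1 residual and 3.19 prior degrees of freedom). No label says that the cultures of a pair were otherwise separate, so p-values reflect the spread of these samples alone, which may be technical.

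The labels give each oligodendrocyte culture the passage number of an OPC culture, so these samples can be paired by passage. They do not say that it came from that same culture. Over genes, the passage differences of OPCs and oligodendrocytes correlated at 0.503. Passage as a block and the other settings described under the processing dependence were alternatives. The members, gene lists and tests were chosen with earlier results of these data known. All 10 members were named. Of each further pathway list, the called genes were named and up to 4 with the largest difference whose brighter side lay above the median of all values. For Id1, Id3 and Bmp4 the 3 most alike genes with a named symbol were given. Promoter letters came from RefSeq tables of build GRCm38.p6.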

Additional observations from a re-analysis of the deposited data

Results flagged for a closer look

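Each of these members moved in opposite directions in 2 settings of the same comparison, with 1 array on each side, and none of the differences was tested. Bmp7 at passage 11 minus passage 3 was -0.42 in oligodendrocytes and 0.28 in OPCs, a difference of -0.69. Id2 in the same comparison was -0.40 in oligodendrocytes and 0.18 in OPCs, a difference of -0.58. Bambi in oligodendrocytes minus OPCs was -0.34 at passage 11 and 0.13 at passage 3, a difference of -0.47. Id1 in oligodendrocytes minus OPCs was 0.20 at passage 11 and -0.14 at passage 3, a difference of 0.33.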

How the results depend on the processing

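The settings tried were the mean of a gene's transcripts, median centring, quantile normalization, dim genes left out, all transcripts tested, a variance trend, passage as a replicate block and leaving out each replicate. Some of them could not change a member's difference, so part of the agreement below was fixed in advance. Each member had 1 transcript, and leaving out an oligodendrocyte array does not touch the OPC differences from EpiSCs or the rosette. Of 668 values under these alternatives, 580 were counted as the same and 8 as reversed. For a tested value, the same means direction and side of the threshold kept, and reversed means a change of sign. Where a setting gave no p, the same means a shift smaller than the SE of the main fit, or than a fixed bound. There a change of sign counted as reversed only if the main difference was at least 2-fold, so the 8 leave out smaller sign changes. With all transcripts tested, which adds transcripts to the adjustment, the count of members called was 0 in OPCs against the rosette and 0 in oligodendrocytes against OPCs. With quantile normalization it was 0 in oligodendrocytes against OPCs, and the cause was not tested. With passage as a replicate block 2 members were called in OPCs against the rosette, Id3 and Id4, and the block changed no other member's call. Leaving out 1 replicate gave 0 to 3 members called in OPCs against the rosette, 0 to 5 in oligodendrocytes against OPCs and 2 to 5 in OPCs against EpiSCs. Leaving out a replicate also gave differences on both sides of 0 for uncalled members. Id1 ranged over -0.32 to 0.33 in OPCs minus rosette, -0.29 to 0.35 in oligodendrocytes minus OPCs and -0.10 to 0.55 in OPCs minus EpiSCs. Bambi ranged over -0.52 to 0.32 in oligodendrocytes minus OPCs and -0.31 to 0.058 in OPCs minus EpiSCs. Bmp7 at passage 11 minus passage 3 was 0.027 with quantile normalization, and -0.42 to 0.28 over the replicates left out. The passage fit has no residual degrees of freedom once a replicate is left out, so it gave values and no calls there. Where 1 array was left in a group, it was assumed to vary like the other pair.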

Other observations

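Fstl1, a follistatin-like secreted protein gene, was at 10.63 in passage 11 and 12.93 in passage 3 oligodendrocytes, and at 11.20 in passage 11 and 12.46 in passage 3 OPCs. Passage 11 lay below passage 3 in both cell types, and the difference of -1.78 did not pass in limma, where 0 genes were called for passage. Crim1, a transmembrane BMP-binding protein gene chosen here after its values were seen, was at 10.21 in passage 11 and 12.36 in passage 3 oligodendrocytes, and at 10.66 and 10.92 in passage 11 and passage 3 OPCs, so its gap lay mainly in oligodendrocytes. The smooth muscle actin gene Acta2 was at 11.87 in passage 11 and 13.79 in passage 3 oligodendrocytes, and at 11.66 and 12.81 in passage 11 and passage 3 OPCs.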
